A study of Saccharomyces cerevisiae with 6 samples.

Results

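The genes described here carry the glyoxylate cycle, steps particular to gluconeogenesis or steps beside these in yeast, except ICL2, which acts in propionate breakdown. They are the 8 genes ICL1 (YER065C), MLS1 (YNL117W), MDH2 (YOL126C), ICL2 (YPR006C), IDP2 (YLR174W), SFC1 (YJR095W), PCK1 (YKR097W) and FBP1 (YLR377C), chosen by name among 5656 genes measured on an Affymetrix yeast array. Each has 1 probe set, and all 8 were above the intensity floor on at least 1 array and entered the fit over 5462 genes. Values were measured on 6 arrays, 1 for each of 6 conditions, from the xylose-engineered strain YSX3 and its respiration-deficient (petite) derivative FPL-YSX3P. YSX3 is of mating type MATalpha and carries 3 Pichia stipitis genes, XYL1 in the construct leu2::LEU2-XYL1, XYL2 in ura3::URA3-XYL2 and XYL3 in Ty3::NEO-XYL3. These genes encode the enzymes that bring xylose into the pentose phosphate pathway, and all 6 samples come from this lineage.

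The oxygen-limited cultures held 50 ml of YP medium with 40 g/L xylose or glucose in 125 ml flasks at 100 rpm, and the cells were taken at an OD600 of 30. The petite cells were grown on glucose in YP to an OD600 of 1. For the petite xylose sample such cells were then moved to YP with xylose, where they stayed 24 hours before RNA was taken. The sugar concentration, culture volume, flask size and shaking of the petite cultures are not stated in the sources used here. The aerobic cultures held 200 ml of YP medium with 20 g/L xylose or glucose in 1000 ml flasks at 300 rpm, and were taken at an OD600 of 1. Oxygen supply, cell density, sugar concentration and culture volume therefore change together between the oxygen-limited and aerobic samples and cannot be told apart. No condition has a second array, so neighbours in any order of levels cannot be separated by a spread between replicates. A p-value here sets a sugar or background effect against the residual, which is the departure of the 6 arrays from additive effects and not a spread between replicates.

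Yeast cells that live on acetate or ethanol must build sugars from acetyl units. The glyoxylate cycle does this by skipping the decarboxylating steps of the tricarboxylic acid cycle, with isocitrate lyase and malate synthase as its own enzymes, and gluconeogenesis then leads from oxaloacetate to hexose phosphate through PCK1 and FBP1. These genes are textbook targets of glucose repression: glucose shuts them off, and the activators Cat8 and Adr1 turn them on when glucose is gone. Several of the enzymes, FBP1, ICL1, MDH2 and PCK1 among them, are also destroyed by the GID ubiquitin ligase when glucose returns, which messenger RNA does not show.

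The deposited values are linear intensities. Median intensity ran from 127 to 166 over the 6 arrays, so all arrays were brought to 1 median before any level was compared, and anything under the 25th percentile of 61.7 was set to that value, called the floor here. The share of genes above the floor ran from 88.0% to 90.5% by array. The petite label was checked on genes of the mitochondrial genome, which petite cells can lose. OLI1 was at the floor on both petite arrays, against 2280 on xylose and 2313 on glucose in the aerobic parent. COX1 was likewise at the floor on both petite arrays, against 1393 and 963 in the aerobic parent. Of 8 such genes listed 6 were tested, of which OLI1 alone passed the petite comparison, and COX3 ran the other way with 204 and 137 in petite cells and the floor in the aerobic parent. ATP8 was at the floor on all petite and oxygen-limited arrays, against 103 on xylose and 126 on glucose in aerobic culture, and was called lower under oxygen limitation (limma adjusted p = 0.0316). The size of that difference is set by the floor, and the call was lost with a floor at the 40th percentile (limma adjusted p = 0.645) and with the mean over probe sets (limma adjusted p = 0.11).

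The first comparison asks how these genes differ between xylose and glucose over the 3 backgrounds. In the petite pair the sugar changes together with the history of the culture, as the xylose cells were moved there from glucose. MDH2 rose on xylose by 2.52-fold and IDP2, PCK1, FBP1, SFC1 and ICL1 had estimates from 2.01-fold to 4.65-fold that missed the threshold, while ICL2 was lower on xylose in all 3 pairs of arrays, as were 23.3% of all genes tested. Limma called 1 of the 8 higher and 0 lower at an adjusted p under 0.05, beside 0.677% of all 5462 genes called higher and 0.0732% called lower. At an unadjusted p under 0.05 it placed 6 of the 8 higher and 0 lower, beside 12.0% and 9.79% of all genes. The median of the 8 estimates was 1.34 on the log2 scale, and that of all genes tested was -0.03. The members were chosen with earlier results of these arrays known, so these counts describe them and are no independent test of the group.

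**Figure D1:**
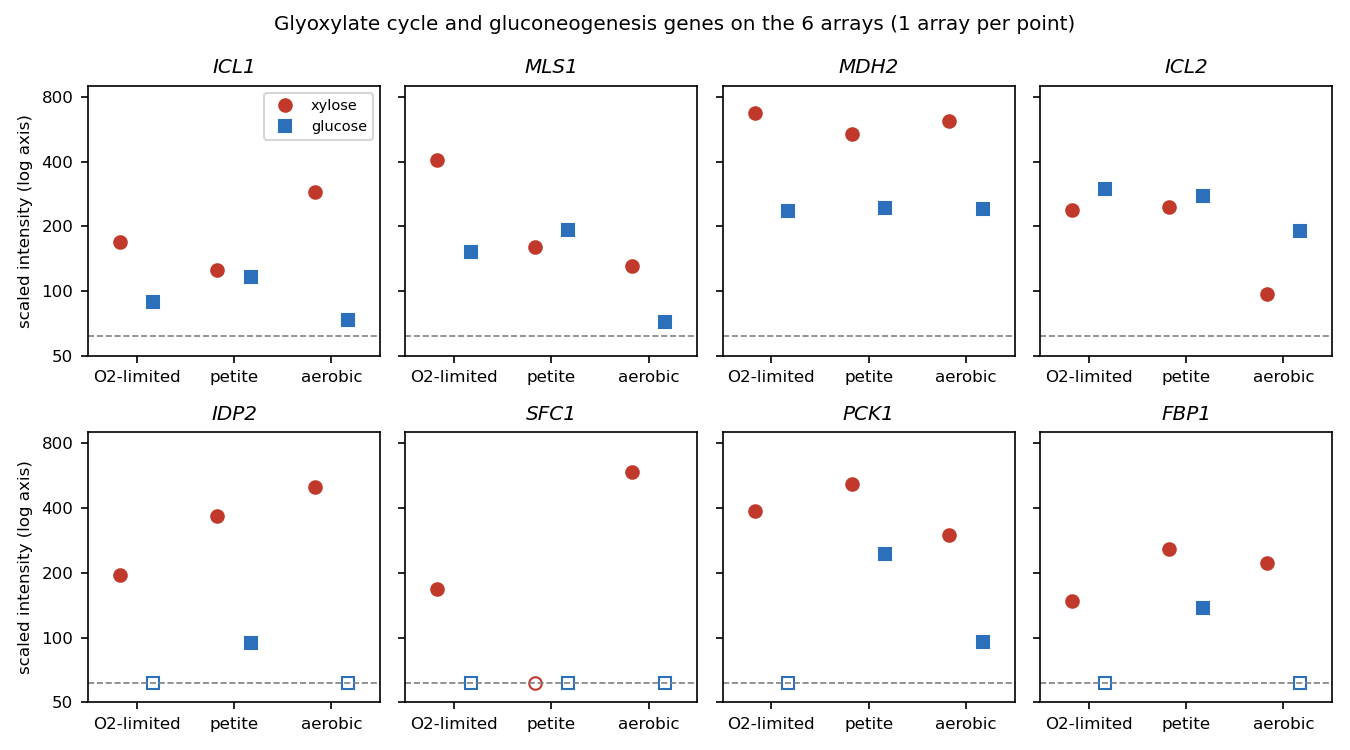
Scaled intensity (log axis) of each of the 8 genes on the 6 arrays, by background, with xylose as circles and glucose as squares. The dashed line is the floor at 61.7, and open symbols lie at it. MDH2 has 3 xylose points between 538 and 672 and 3 glucose points between 237 and 245.

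Isocitrate lyase, encoded by ICL1, splits isocitrate into succinate and glyoxylate and commits carbon to the cycle. ICL1 had 169 on xylose and 88.8 on glucose under oxygen limitation, 125 and 117 in petite cells, and 291 and 73.2 in aerobic culture. The xylose arrays all lay above the glucose arrays, with a gap of 3.97-fold in aerobic culture and 1.07-fold in petite cells. The aerobic glucose value lay near the floor of 61.7, so the size of the aerobic gap rests on a dim signal. On the log2 scale xylose minus glucose was 0.93 under oxygen limitation, 0.10 in petite cells and 1.99 in aerobic culture. The additive estimate was 1.01 with a standard error of 0.36 (limma adjusted p = 0.21), and 0.52 without either aerobic array.

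Malate synthase, encoded by MLS1, joins glyoxylate and acetyl-CoA to malate. MLS1 had 406 on xylose and 152 on glucose under oxygen limitation, 161 and 192 in petite cells, and 131 and 71.7 in aerobic culture. Its highest array was thus the oxygen-limited xylose one, and petite cells were the only background with less on xylose than on glucose. Differences were 1.42, -0.26 and 0.87 on the log2 scale in these 3 backgrounds, and the estimate of 0.68 (standard error 0.33) had a limma adjusted p of 0.303. It was 0.31 without either oxygen-limited array and 1.14 without either petite array. The enzymes that open and close the bypass therefore had different profiles: ICL1 was highest on aerobic xylose, where MLS1 was lower than on both petite arrays.

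MDH2, the cytosolic malate dehydrogenase, turns malate into the oxaloacetate that PCK1 uses. It had 672 on xylose and 237 on glucose under oxygen limitation, 538 and 245 in petite cells, and 621 and 241 in aerobic culture. The glucose arrays fell within a narrow band and the xylose arrays lay more than 2-fold above it in each background. Differences of 1.51, 1.14 and 1.36 gave an estimate of 1.34 on the log2 scale with a standard error of 0.15 (limma adjusted p = 0.043). MDH2 had the smallest standard error of the 8 genes, and it ranked 32 by p-value among all genes. The call did not hold under quantile normalization (limma adjusted p = 0.0585) or with the mean over probe sets (limma adjusted p = 0.0526). Leaving out the aerobic pair also ended it, where 50 genes in all were called higher and 8 lower. MDH2 was not called with a floor at the 40th percentile (limma adjusted p = 0.1) or with genes at the floor on all arrays kept (limma adjusted p = 0.216). Nor was it without the oxygen-limited or the petite pair. Under these 4 settings no gene at all was called, so they cannot decide on MDH2. Without any 1 array no gene at all was called, so that setting cannot decide on MDH2. The estimate itself stayed between 1.25 and 1.44 over 17 alternatives.

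IDP2 encodes the cytosolic isocitrate dehydrogenase that makes NADPH, from the same substrate as isocitrate lyase. It had 195 on xylose under oxygen limitation, 370 in petite cells and 502 in aerobic culture, against the floor, 94.8 and the floor on glucose in the same order. Every xylose array exceeded every glucose array, with at least 3.16-fold more under oxygen limitation, 3.90-fold more in petite cells and at least 8.14-fold more in aerobic culture. Its estimate of 2.22 (standard error 0.29) was the highest of the 8 and just missed the threshold (limma adjusted p = 0.0526). A lower floor, at the 10th percentile, put IDP2 past the threshold at 2.40 (limma adjusted p = 0.0209), and over 17 alternatives its adjusted p ran from 0.0209 to 0.594.

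SFC1 is the carrier that takes succinate from the cytosol into mitochondria in exchange for fumarate, which links the bypass to the tricarboxylic acid cycle. It had 168 on xylose under oxygen limitation and 591 in aerobic culture, and lay at the floor on both petite arrays and on both other glucose arrays. Xylose exceeded glucose by at least 2.72-fold under oxygen limitation and by at least 9.59-fold in aerobic culture. The aerobic difference exceeded that of 99.8% of the 5138 genes compared in that pair. In petite cells neither sugar gave a level above the floor, so no single-pair difference is given there. In the additive fit, which used the floored values, the petite pair counted as no difference. Before the floor was applied the scaled values there were 54.9 on xylose and 39.6 on glucose. The additive estimate of 1.57 had the largest standard error of the 8, 0.60 (limma adjusted p = 0.22), and with 4 arrays at the floor it ran from 0.71 to 2.37 over 17 alternatives.

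PCK1, phosphoenolpyruvate carboxykinase, draws oxaloacetate into gluconeogenesis. It had 389 on xylose and the floor on glucose under oxygen limitation, 517 and 245 in petite cells, and 301 and 95.2 in aerobic culture. The xylose arrays were all above the glucose arrays, and the petite glucose array was the highest of the 3 on glucose. Xylose exceeded glucose by at least 6.31-fold, by 2.11-fold and by 3.17-fold in these backgrounds, and the estimate was 1.80 (standard error 0.32, limma adjusted p = 0.0877).

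FBP1, fructose-1,6-bisphosphatase, catalyses the last step that gluconeogenesis does not share with glycolysis in making hexose phosphate. It had 149 on xylose and the floor on glucose under oxygen limitation, 258 and 138 in petite cells, and 222 and the floor in aerobic culture. Petite cells were highest on either sugar, as for PCK1. On xylose PCK1 was higher under oxygen limitation than in aerobic culture, whereas FBP1 was lower. Xylose exceeded glucose by at least 2.41-fold, by 1.88-fold and by at least 3.60-fold, and the estimate was 1.34 (standard error 0.22, limma adjusted p = 0.0815).

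ICL2 encodes a mitochondrial 2-methylisocitrate lyase, related to ICL1 in sequence but acting in propionate breakdown rather than in the glyoxylate cycle. It had 240 on xylose and 299 on glucose under oxygen limitation, 246 and 279 in petite cells, and 96.5 and 191 in aerobic culture. Xylose minus glucose was -0.32, -0.18 and -0.99 on the log2 scale in these 3 backgrounds, although the sugars overlapped across backgrounds. The estimate was -0.49 (standard error 0.21, limma adjusted p = 0.246), the only negative one among the 8, and it was -0.25 without either aerobic array.

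**Figure D2:**
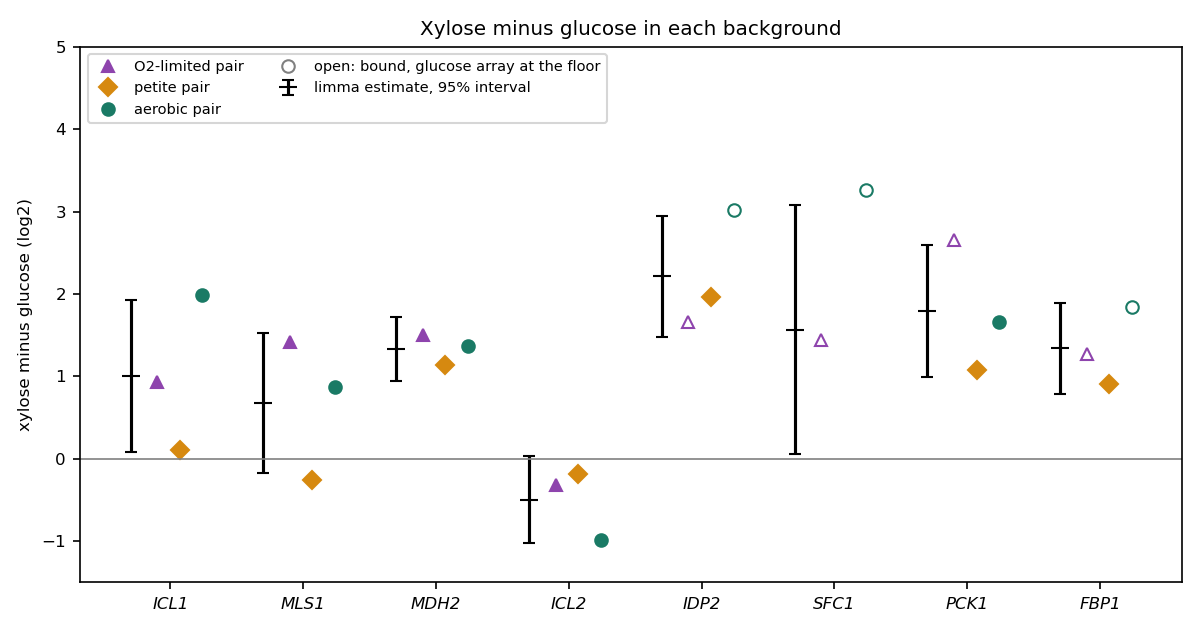
Xylose minus glucose on the log2 scale for each gene, with triangles for the oxygen-limited, diamonds for the petite and circles for the aerobic pair, and the limma estimate with its 95% interval in black. Open symbols are lower bounds because the glucose array lay at the floor, and SFC1 has no petite point because both arrays lay there. The points of MDH2 lie within 1.14 and 1.51, whereas those of ICL1 run from 0.10 to 1.99.

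Counted over the 8 genes, the xylose arrays lay above all glucose arrays for 5, namely ICL1, MDH2, IDP2, PCK1 and FBP1, beside 6.94% of all genes tested, and below them for 0, beside 3.63%. The highest of the 6 arrays was aerobic xylose for ICL1, IDP2 and SFC1, beside 16.5% of genes, oxygen-limited xylose for MLS1 and MDH2, beside 19.6%, and petite xylose for PCK1 and FBP1, beside 15.7%. Aerobic glucose was the lowest array, ties at the floor included, for 5, beside 19.5%, and all 3 pairs were higher on xylose for 5, beside 22.2%. MDH2, IDP2 and PCK1 were at least 2-fold higher on xylose in each of the 3 pairs, beside 1.28% of all genes. Under oxygen limitation 6 of 8 were at least 2-fold higher on xylose, beside 8.76% of the genes compared there, and in aerobic culture 6 of 8, beside 3.13%. In petite cells 3 of the 7 that could be compared were so, IDP2, MDH2 and PCK1, beside 5.76%. None of the 8 was 2-fold lower on xylose in any pair, beside 4.24%, 5.28% and 2.10% of genes in the oxygen-limited, petite and aerobic pairs. Sugar differences were thus smallest in petite cells for ICL1, MLS1, MDH2, PCK1, FBP1 and ICL2. For IDP2 the order is not settled, since its oxygen-limited difference is a lower bound. With 1 array per condition the difference between backgrounds was not tested.

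**Figure D3:**
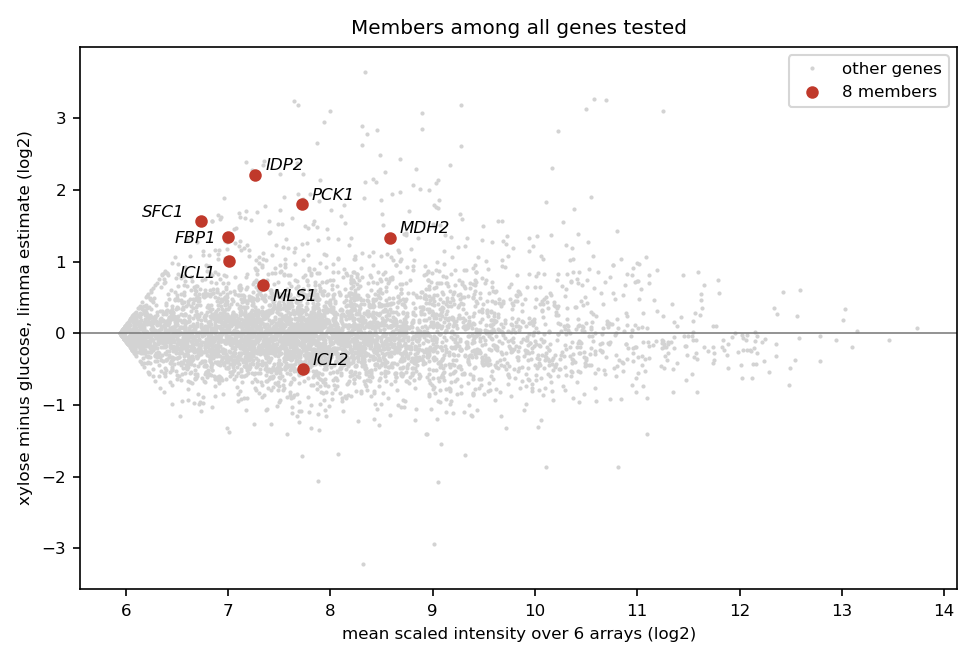
Limma estimate of xylose minus glucose (log2) against mean scaled intensity over the 6 arrays (log2) for all genes tested, in grey, with the 8 genes in red. IDP2 is the highest of the 8 at 2.22 and ICL2 the only one below 0, at -0.49.

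The second comparison sets oxygen-limited against aerobic culture over both sugars. ICL2 rose under oxygen limitation by 1.97-fold, MLS1 was 2.56-fold higher without passing, and the other 6 had estimates between -0.91 and 0.04 on the log2 scale. Limma called 1 of the 8 higher and 0 lower, beside 8.04% of all genes called higher and 15.9% called lower, so that the share of members called is near that of all genes. At an unadjusted p under 0.05 limma placed ICL2 and MLS1 higher and 0 lower, beside 16.0% and 25.8% of all genes. The median of the 8 estimates was -0.19, and that of all genes -0.08. The scaling moves this comparison: 439 genes were called higher and 868 lower with a common median, 432 and 558 with quantile normalization, and 1032 and 430 on the values as deposited, where the median of all genes was 0.21. On the deposited values ICL1 and PCK1 also changed sign, at 0.10 and 0.15, beside -0.25 and -0.13 with a common median.

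ICL2 had 240 on xylose and 299 on glucose under oxygen limitation, against 96.5 and 191 in aerobic culture. Both oxygen-limited arrays lay above both aerobic ones, as they did for 25.8% of all genes. Both pairs were higher, and the estimate was 0.98 on the log2 scale with a standard error of 0.25 (limma adjusted p = 0.0479). The call was lost without any 1 array, but so was that on every other gene, so this setting cannot decide on ICL2. The estimate was 0.61 without the aerobic xylose array. Other genes were still called with a floor at the 40th percentile and with the mean over probe sets. ICL2 did not pass there (limma adjusted p = 0.0565 and 0.0505), and it passed under 5 of 15 alternatives. MLS1 had 406 on xylose and 152 on glucose under oxygen limitation, against 131 and 71.7 in aerobic culture, again with no overlap. Its estimate was 1.36 (standard error 0.41, limma adjusted p = 0.0665), and the values as deposited gave 1.71 (limma adjusted p = 0.0367).

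On xylose the members went apart under oxygen limitation. IDP2 and SFC1 were lower there than in aerobic culture by 1.37 and 1.82 on the log2 scale, and ICL1 by 0.78, while MLS1 was higher by 1.63 and ICL2 by 1.31. PCK1 was 0.37 higher, MDH2 0.11 higher and FBP1 0.58 lower. In this pair 2 of the 8 were at least 2-fold higher and 2 at least 2-fold lower, beside 9.36% and 15.4% of the genes compared. On glucose 5 of the 8 could be compared, of which MLS1 alone was at least 2-fold higher, by 1.08, beside 4.50% of genes, and 0 were 2-fold lower, beside 11.5%. IDP2, SFC1 and FBP1 were at the floor in both glucose cultures. In the fit their glucose pair thus counted as no difference, and their estimates over both sugars rest on the xylose pair. Arrays also differed along the probe set numbers. Among the nearest genes in number on either side, the median oxygen-limited minus aerobic difference on xylose was -0.41 around SFC1, -0.21 around PCK1, -0.21 around MLS1 and -0.19 around IDP2, but 0.22 around MDH2. With the running median along the numbers removed, the oxygen-limited minus aerobic estimate over both sugars was -0.50 for SFC1, beside -0.91 without that step. It was -0.54 beside -0.68 for IDP2 and 1.52 beside 1.36 for MLS1.

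The third comparison sets the petite mutant against its aerobic parent over both sugars. Sugar concentration, culture volume and shaking are not stated for the petite cultures. A difference in these from the parent cultures therefore cannot be told apart from the petite mutation. None of the 8 passed, beside 0.0183% of all genes called higher and the same share called lower. At an unadjusted p under 0.05 limma placed ICL2, PCK1 and FBP1 higher and none lower, beside 11.6% and 22.2% of all genes. PCK1 was at 1.07 (standard error 0.39, limma adjusted p = 0.126), ICL2 at 0.95 (standard error 0.25, limma adjusted p = 0.0759) and FBP1 at 0.69 (standard error 0.27, limma adjusted p = 0.144). SFC1 was lowest at -1.63 with a standard error of 0.73 (limma adjusted p = 0.184). Its glucose arrays in petite cells and in the parent were at the floor, so that pair entered the fit as no difference. The median of the 8 was 0.39 and that of all genes -0.11, or 0.11 on the values as deposited, where ICL1 and MDH2 changed sign to 0.0079 and 0.19. This comparison and the preceding one use the same aerobic arrays, so values of a gene in both move together with those arrays.

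On glucose all 7 genes that could be compared were higher in petite cells than in the parent, beside 41.7% of genes compared in that pair, although MDH2 differed by 0.02. PCK1 had 245 in petite cells against 95.2 in the aerobic parent, and MLS1 192 against 71.7. FBP1 had 138 in petite cells against the floor in the parent. These 3 were at least 2-fold higher, beside 4.72% of genes compared, and 0 were 2-fold lower, beside 5.05%. ICL1 was 0.67 higher, ICL2 0.54 higher and IDP2 at least 0.62 higher.

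On xylose 4 genes were higher, beside 42.4% of genes compared, and 4 lower in petite cells, and 2 were at least 2-fold lower, beside 13.5% of genes compared. SFC1 was at the floor in petite cells against 591 in the parent, at least 9.59-fold less, and ICL1 had 125 against 291, a difference of -1.22 on the log2 scale. ICL2 alone was at least 2-fold higher, with 246 against 96.5, beside 8.44% of genes. IDP2 at 370 against 502 and MDH2 at 538 against 621 were lower by less, while PCK1 was 0.78 higher. The petite xylose cells had been moved from glucose 24 hours earlier and the parent had grown on xylose, so the history of the culture cannot be told apart from the loss of respiration in this pair.

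**Figure D4:**
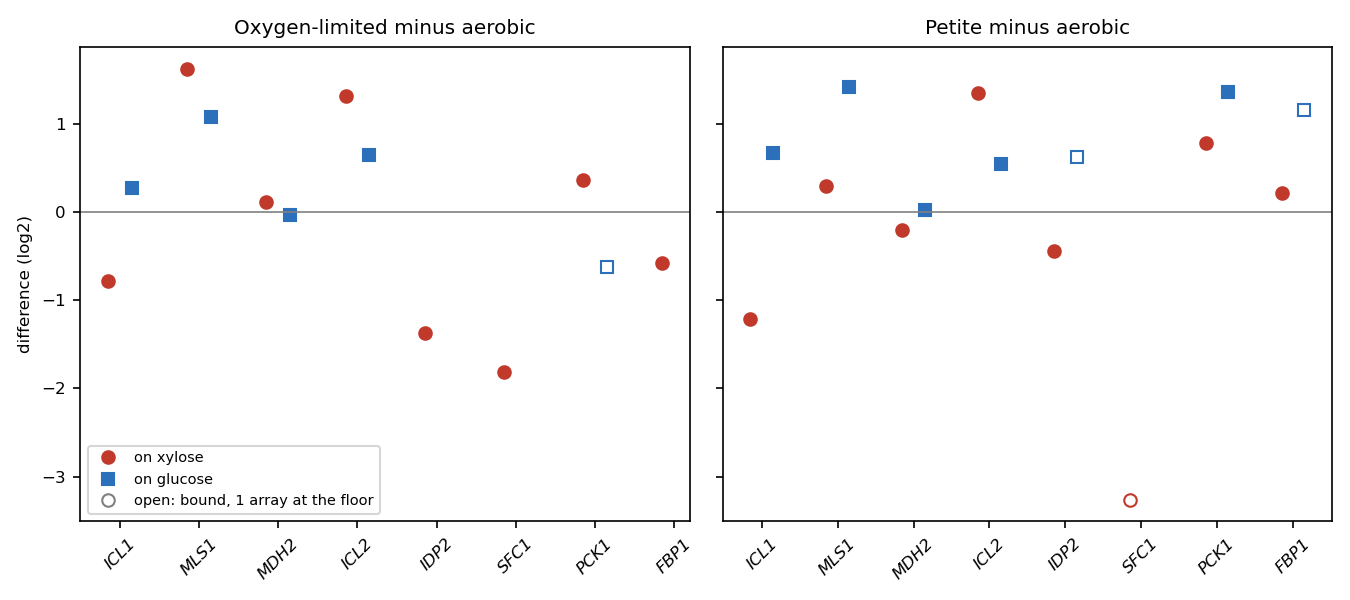
Oxygen-limited minus aerobic (left) and petite minus aerobic (right) on the log2 scale for each gene, with circles for xylose and squares for glucose and open symbols for bounds. Pairs with both arrays at the floor have no point. SFC1 on xylose lies at -1.82 in the left panel and at its upper bound of -3.26 in the right one.

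Over the 6 arrays PCK1 and FBP1 had a Pearson r of 0.94, IDP2 and FBP1 0.93, and MDH2 and IDP2 0.89. MLS1 had r of 0.27 with IDP2, 0.40 with ICL1 and 0.53 with PCK1. ICL2 ran against ICL1 at -0.70. SFC1, above the floor on 2 arrays, was left out. These are descriptions over 6 points that share the same arrays, floor and scaling.

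**Figure D5:**
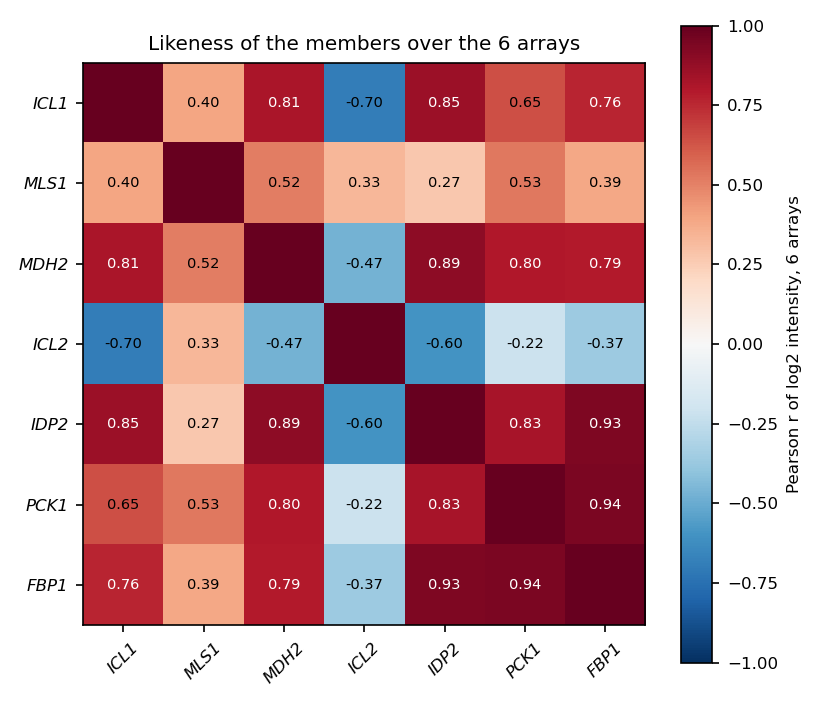
Pearson r of log2 intensity over the 6 arrays between each pair of 7 genes, without SFC1, with red for positive and blue for negative values. PCK1 and FBP1 share the highest value, 0.94, and ICL2 and ICL1 the lowest, -0.70.

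Among 2985 other genes with a range of at least 1 on the log2 scale and at least 3 arrays above the floor, those most like each member were listed. MDH2 was followed most closely by YLR152C, YHR033W and ADR1, the activator of alcohol and fatty acid use, with r of 0.997, 0.995 and 0.993. PCK1 was nearest to ECM4, PRX1 and ACS1, with r of 0.99, 0.98 and 0.97. ACS1 encodes the acetyl-CoA synthetase that glucose represses. IDP2 was nearest to GOR1, FAT3 and CYB2 at 0.97, 0.96 and 0.96, where GOR1 encodes a glyoxylate reductase. ICL1 was nearest to ALD3, HOR7 and KNH1 at 0.98, 0.94 and 0.94, and FBP1 to RDL1, YBR085C-A and HSP12 at 0.97, 0.96 and 0.95. MLS1 was nearest to HRK1, PIG1 and IES1, each at 0.98, and ICL2 to SUV3, MED1 and YKR104W at 0.98, 0.97 and 0.96. With 6 points and so many candidates, values this high describe these arrays only. SFC1 was above the floor on 2 arrays and was not placed.

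A list of 10 isozymes, which also holds the members ICL1, ICL2, MLS1, MDH2 and IDP2, had a median of 0.75 on xylose. Its 1 call there was the member MDH2, with 0.677% of all genes called higher and 0.0732% lower. Its 1 call under oxygen limitation was the member ICL2, with 8.04% of all genes called higher. Of the genes on it that are not members, IDP1, IDP3, MDH1, MDH3 and DAL7, none passed in any comparison. MDH1, the mitochondrial malate dehydrogenase, had 3629 on xylose and 1628 on glucose under oxygen limitation, 1595 and 1114 in petite cells, and 5542 and 2820 in aerobic culture. Its sugar estimate was 0.88 (limma adjusted p = 0.111), and petite minus aerobic was -1.57 (limma adjusted p = 0.0515), beside -0.09 for MDH2. The peroxisomal MDH3 was at 0.54 on xylose (limma adjusted p = 0.174). IDP1, the mitochondrial counterpart of IDP2, was at -0.33 on xylose (limma adjusted p = 0.432) beside 2.22 for IDP2, and the peroxisomal IDP3 was at 0.82 with 3 glucose arrays at the floor. DAL7, a second malate synthase gene tied to allantoin use, was at 0.02 on xylose and stayed between 82.3 and 115 on all arrays. Such near copies as DAL7 and MLS1 could share signal between probe sets, which was not tested.

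Other genes of the pathway were taken from lists set up beside the members, of which none outside the mitochondrial genome had a gene that passed in petite cells. The calls on list genes, like those on MDH2 and ICL2 and on every other gene, were lost when any 1 array was left out. Quantile normalization ended those on ALD4 on xylose and on PYC1, PFK26, ACS2, CAT2, YHM2 and SNF4 under oxygen limitation, and the values as deposited ended those on ACS2, YHM2 and SNF4. Of 5 partners of the bypass, 0 passed in any comparison, with a median of 0.10 on xylose. The highest was AGX1, which converts glyoxylate to glycine, at 3.18 (limma adjusted p = 0.0844), and the lowest the peroxisomal citrate synthase CIT2 at -0.44 (limma adjusted p = 0.677). Aconitase, ACO1, which makes the isocitrate that the bypass uses, had 2834 on xylose and 1100 on glucose under oxygen limitation, 360 and 1422 in petite cells, and 2279 and 1213 in aerobic culture. Its estimate on xylose was 0.10 (limma adjusted p = 0.94). Of 9 gluconeogenic partners and opposing glycolytic genes, 0 passed on xylose, with a median of 0.01. Their highest was the pyruvate carboxylase PYC1 at 1.34 (limma adjusted p = 0.148) and their lowest the pyruvate kinase CDC19 at -0.82 (limma adjusted p = 0.387). Under oxygen limitation PYC1 fell by 2.01 (limma adjusted p = 0.0325, both pairs lower). The kinase gene PFK26, whose product makes the fructose-2,6-bisphosphate that inhibits FBP1, rose there by 1.04 (limma adjusted p = 0.0495, both pairs higher).

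Of 10 genes that supply or shuttle acetyl-CoA, 1 rose and 0 fell on xylose, with a median of 0.89. The gene that rose was ALD4, for an aldehyde dehydrogenase of mitochondria, by 2.31 (limma adjusted p = 0.0442). The lowest was ACS2, the acetyl-CoA synthetase used on glucose, at -0.44 (limma adjusted p = 0.336), beside 1.52 for ACS1 (limma adjusted p = 0.103). Under oxygen limitation ACS2 fell by 1.39 (limma adjusted p = 0.0314) and the carnitine acetyltransferase CAT2 rose by 1.16 (limma adjusted p = 0.0498), each the same way in both pairs. Of 8 organic acid transporters 0 passed on xylose, with a median of 0.19. The highest was the lactate and pyruvate permease JEN1 at 2.86 (limma adjusted p = 0.0684), and the lowest was ODC2, an oxodicarboxylate carrier, at -0.40 (limma adjusted p = 0.428). The mitochondrial carrier YHM2 fell under oxygen limitation by 1.39 (limma adjusted p = 0.038).

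Of 10 regulators of carbon source use tested, 1 rose on xylose, ADR1, by 1.89 (limma adjusted p = 0.0286), 0 fell, and the median was 0.50. ADR1 was at the floor on the oxygen-limited and aerobic glucose arrays, so the size of its difference depends on the floor. With a floor at the 40th percentile it was 1.13 (limma adjusted p = 0.111). The call was also lost when genes at the floor on all arrays were kept (limma adjusted p = 0.215). No gene at all was called on xylose under either setting, so these losses cannot decide on ADR1. It passed under 7 of 17 alternatives, among them quantile normalization (limma adjusted p = 0.0361) and the mean over probe sets (limma adjusted p = 0.0387). CAT8, the activator of gluconeogenic genes, had 197 on xylose under oxygen limitation, 119 in petite cells and 154 in aerobic culture, and was at the floor on all 3 glucose arrays. Its estimate was 1.31 (limma adjusted p = 0.0639). SIP4 was at the floor on all arrays and was not tested. The activator subunit HAP4 was highest at 2.07 (limma adjusted p = 0.0794), and the repressor MIG2 lowest at -1.13 (limma adjusted p = 0.0501). SNF4, a subunit of the Snf1 kinase, fell under oxygen limitation by 0.65 (limma adjusted p = 0.0496), but was at -0.29 on the values as deposited (limma adjusted p = 0.257). Of 8 genes of the GID ligase, which removes gluconeogenic enzymes, 0 passed on xylose or in petite cells, with medians of 0.76 and 0.55. All 8 estimates were above 0 in each, beside 46.8% of all genes on xylose and 41.5% in petite cells. VID30 was highest on xylose at 0.94 (limma adjusted p = 0.0983) and FYV10 lowest at 0.15 (limma adjusted p = 0.635), with 5 arrays at the floor. RMD5, a ubiquitin ligase subunit, rose under oxygen limitation by 1.22 (limma adjusted p = 0.0234).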

How the data were processed

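Messenger RNA was measured on 6 Affymetrix yeast arrays, 1 per condition. Each probe set has 1 linear intensity as deposited; which software made it, and with what scaling, is not given in the sources used here. Among 9335 probe sets, 1 without a value and 60 controls were left out. Of the remaining 9274, 6504 had 1 gene, 328 several and 2442 none, by a platform annotation updated through gene identifiers. Arrays were scaled to a common median, floored at the 25th percentile (61.7) and put on the log2 scale. Where a gene had several probe sets the brightest on average was used, and 5462 genes with at least 1 array above the floor were tested.

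All genes were fitted with additive terms for background and sugar in limma 3.58.1 in R 4.3.3 (2 residual degrees of freedom), with Benjamini-Hochberg adjustment over all genes and a threshold of 0.05. Differences between 2 arrays have no p-value, are bounds where 1 array lay at the floor, and were left out where both did. The fit used the floored values, so a pair with both arrays at the floor entered it as no difference. Members and gene lists were chosen with earlier results of these data known. The text names the 8 members, list genes that passed or were highest or lowest on xylose, and the 3 genes most like each member by Pearson r. MDH1, MDH3, IDP1, IDP3, DAL7, ACO1, CAT8, SIP4 and COX3 fall outside that rule and were chosen after their values were seen. Alternatives changed the scaling, floor, filter, probe set rule, variance trend and position trend (a running median along probe set numbers), or left out arrays or pairs. The fit was tested on simulated data. The number of arrays limits the precision.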

Additional observations from a re-analysis of the deposited data

Results flagged for a closer look

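These results drew attention because pairs of arrays moved in opposite directions under the same contrast. Each pair is 1 array against 1, so none of these differences was tested. MLS1 was lower on xylose in petite cells (-0.26 on the log2 scale) but higher under oxygen limitation (1.42) and in aerobic culture (0.87), so that the petite effect lay -1.67 from the oxygen-limited and -1.13 from the aerobic one. For ICL1, oxygen-limited minus aerobic was -0.78 on xylose and 0.28 on glucose, -1.06 apart, and petite minus aerobic was -1.22 on xylose and 0.67 on glucose, -1.89 apart. PCK1 was higher under oxygen limitation than in aerobic culture on xylose (0.37) and lower on glucose (at most -0.63), at least 0.99 apart. IDP2 was lower in petite cells than in the aerobic parent on xylose (-0.44) and higher on glucose (at least 0.62), a gap of at most -1.06. MDH2 changed sign with the sugar by less, with 0.14 between the effects of oxygen limitation and -0.23 between those of the petite mutation.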

How the results depend on the processing

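On xylose against glucose limma called 1 member, MDH2. It called 2, IDP2 and MDH2, on the values as deposited, with the floor at the 10th percentile and with a variance trend, and 3, FBP1, IDP2 and MDH2, with the running median along probe set numbers removed. It called 0 under quantile normalization, with the floor at the 40th percentile, with no filter on dim genes, with the mean over probe sets, and without the oxygen-limited or the petite pair. Without the aerobic pair it called 1, IDP2 in place of MDH2, beside 50 genes called higher and 8 lower over all genes. Without the oxygen-limited or the petite pair no gene at all was called. Leaving out any 1 array gave 0. Over all genes, 37 were called higher and 4 lower, against 83 and 15 with the floor at the 10th percentile, 60 and 13 with the running median removed, and 0 and 0 with the floor at the 40th percentile, with no filter, and without any 1 array. Under oxygen limitation limma called 1 member, ICL2, but 2, ICL2 and MLS1, on the values as deposited and with the floor at the 10th percentile, and 0 with the floor at the 40th percentile, with no filter, with the mean over probe sets, and without any 1 array. Without the petite pair MLS1 was called in place of ICL2. In petite cells 0 members were called under each of the 15 alternatives run, while over all genes the calls ran from 0 to 227 higher and from 0 to 340 lower. The cause of these shifts was not tested. A setting without 1 array leaves 1 residual degree of freedom, and so does a setting without 1 pair.

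Of the member results under an alternative, 327 kept direction and side of the threshold, 23 lost it, 9 gained it and 17 changed sign. Most of the 327 had not passed to begin with, and all 23 losses fell on the calls of MDH2 and ICL2. MDH2 on xylose passed under 4 of 17 alternatives, and ICL2 under oxygen limitation under 5 of 15. Several of the other alternatives called no gene at all in that comparison, and those cannot decide on either call. Sign changes touched estimates that had not passed. Under oxygen limitation the values as deposited gave ICL1 0.10 and PCK1 0.15, and the floor at the 40th percentile gave PCK1 0.18. Leaving out 1 array gave ICL1 -0.99 to 0.49, MDH2 -0.085 to 0.17, SFC1 -2.18 to 0.36, PCK1 -0.78 to 0.51 and FBP1 -0.67 to 0.086. In petite cells the values as deposited gave ICL1 0.0079 and MDH2 0.19, quantile normalization gave MDH2 0.015, and the floor at the 40th percentile gave IDP2 -0.22. Leaving out 1 array gave ICL1 -1.01 to 0.46, MDH2 -0.24 to 0.055 and IDP2 -0.52 to 0.68. On xylose against glucose no member changed sign under the 17 alternatives run. The sugar comparison is already blocked by background, with 3 pairs of arrays, and the labels carry no replicate numbers for another block. Signal near the floor limits SFC1, IDP2, FBP1, CAT8 and ADR1, whose glucose levels are mostly bounds. It also touches ICL1 and MLS1, with 73.2 and 71.7 on aerobic glucose, and PCK1, at the floor on oxygen-limited glucose. With the floor at the 40th percentile the estimates on xylose of ICL1, MLS1 and PCK1 were 0.71, 0.47 and 1.45, beside 1.01, 0.68 and 1.80.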
